A study of Mus musculus with 5 samples.

Results

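Developmental transcription factors that lie outside the Hox clusters were followed as 1 group in whole-genome bisulfite sequencing (WGBS) of mouse leukemic blasts. The group held 55 genes, chosen by symbol from 11 families, among 21755 protein-coding genes of GENCODE vM21 on the autosomes and the X chromosome. They were 7 Pax, 5 Sox, 3 sine oculis-related (Six2, Six3, Six6), 5 Nkx, 7 Lhx, 4 Dlx, 6 Tbx, 5 Fox, 4 Irx and 2 Gata genes and 7 homeobox genes of the head (Otx1, Otx2, Gsc, Emx1, Emx2, Barhl1 and Barhl2).

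WGBS reads an unmethylated cytosine as T and a methylated cytosine as C, and so gives the share of methylated calls at each CpG. All 5 libraries came from blasts of acute myeloid leukemia (AML) in the bone marrow of C57BL/6 mice, and all were Cebpa-/p30, with 1 Cebpa allele deleted and the other making p30 alone, a shortened form of the myeloid factor CEBPA. Libraries 23 and 24 were Tet2+/+, and libraries 5, 7 and 8 were Tet2-/-, without the dioxygenase that oxidises methylated cytosine. Donor marrow, from C57BL/6J mice by the study's methods, was transplanted into lethally irradiated adult female C57BL/6J.SJL congenic recipients, and the floxed alleles were then deleted by Mx1-Cre after poly(I:C) injection, in both groups. The Mx1 promoter answers to interferon and is not restricted to myeloid cells, and each library was 1 leukemia from 1 mouse. Live CD45.2+ cells were sorted without CD3, B220 or Ter119. In such bulk cells, a change in the share of cells of one kind and a change within cells cannot be told apart.

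The members are master regulators of embryonic patterning, and in blood most of them are silent. In many cell types their start sites lie in wide, CpG-rich stretches held by Polycomb complexes, which keep genes off with little DNA methylation. In cancers such stretches are a common site of gained methylation, and TET enzymes act against such gain.

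On the autosomes and X the libraries held between 63111735 and 110752967 calls, a mean of 2.96 to 5.19 calls per CpG dyad (both strands of 1 CpG). Over the first 1000 bp of the last exon of Tet2, calls numbered 44 and 64 in Tet2+/+ libraries 23 and 24, and 0 in each of the 3 Tet2-/- libraries. The genome-wide level was 67.3% and 62.3% in Tet2+/+ and 70.9%, 74.8% and 68.4% in Tet2-/-, so that every Tet2-/- library was above both Tet2+/+ libraries in the genome as a whole. At mitochondrial CpGs, which are taken as unmethylated, 0.807% to 0.989% of calls were methylated. Median promoter methylation of 8 myeloid genes (from 0.487% to 2.08% at the granule protease gene Prtn3 to 33.3% to 53.4% at another, Elane) was 8.77% to 17.6% across libraries, against 67.6% to 87.1% for 6 T cell genes and 55.6% to 75.4% for 6 B cell genes. For 4 erythroid genes tested it was 34.9% and 32.9% in Tet2+/+ and 58.8%, 56.5% and 58.4% in Tet2-/-. In each of the 4 marker lists the 3 Tet2-/- medians lay above both Tet2+/+ medians, and the part of other cell types in the results was not tested.

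The 250 bases before the start site of 6 members are shown because all are rich in CG, with 19 to 36 each, and differ widely in level. The sequences are from RefSeq (GRCm38.p6), which matched 39 of the 55 genes, and capitals mark each CG.
Nkx6-2: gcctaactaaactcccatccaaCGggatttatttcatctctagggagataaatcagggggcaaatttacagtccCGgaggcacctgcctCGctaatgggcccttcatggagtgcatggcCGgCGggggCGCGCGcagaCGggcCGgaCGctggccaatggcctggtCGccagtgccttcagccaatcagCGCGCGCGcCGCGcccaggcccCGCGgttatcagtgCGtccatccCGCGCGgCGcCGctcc
Lhx1: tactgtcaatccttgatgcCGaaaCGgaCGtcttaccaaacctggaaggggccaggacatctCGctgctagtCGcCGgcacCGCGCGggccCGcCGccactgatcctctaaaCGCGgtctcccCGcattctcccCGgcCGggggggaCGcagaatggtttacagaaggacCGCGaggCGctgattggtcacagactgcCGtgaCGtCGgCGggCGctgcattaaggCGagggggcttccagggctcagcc
Foxc1: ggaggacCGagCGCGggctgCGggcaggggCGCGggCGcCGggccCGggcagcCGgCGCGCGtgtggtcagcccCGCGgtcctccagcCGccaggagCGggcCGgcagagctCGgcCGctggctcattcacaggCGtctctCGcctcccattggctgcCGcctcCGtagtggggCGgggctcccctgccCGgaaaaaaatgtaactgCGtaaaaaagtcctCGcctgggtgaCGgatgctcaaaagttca
Barhl2: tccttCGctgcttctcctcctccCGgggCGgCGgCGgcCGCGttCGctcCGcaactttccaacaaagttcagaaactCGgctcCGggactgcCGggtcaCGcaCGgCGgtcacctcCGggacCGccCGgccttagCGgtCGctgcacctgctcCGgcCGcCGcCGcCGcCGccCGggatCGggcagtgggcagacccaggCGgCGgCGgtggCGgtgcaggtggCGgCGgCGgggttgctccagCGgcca
Foxd3: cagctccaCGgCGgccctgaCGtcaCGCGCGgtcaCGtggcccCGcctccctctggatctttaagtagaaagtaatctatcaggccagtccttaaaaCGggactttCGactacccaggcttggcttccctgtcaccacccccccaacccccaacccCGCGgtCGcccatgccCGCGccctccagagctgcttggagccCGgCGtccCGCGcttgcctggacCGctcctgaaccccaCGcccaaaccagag
Irx2: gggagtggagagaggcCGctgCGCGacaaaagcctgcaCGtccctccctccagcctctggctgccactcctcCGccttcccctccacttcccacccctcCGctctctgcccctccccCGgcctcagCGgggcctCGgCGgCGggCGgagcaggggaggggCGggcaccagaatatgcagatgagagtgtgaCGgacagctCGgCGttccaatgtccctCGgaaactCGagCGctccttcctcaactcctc
The stretch of Nkx6-2 (chr7:139582798-139583047, minus strand, 26 CpG dyads) was methylated to 15.6% and 5.05% in Tet2+/+ libraries 23 and 24, against 60.7%, 27.2% and 68.0% in Tet2-/- libraries 5, 7 and 8. That of Lhx1 (chr11:84525535-84525784, minus strand, 26 dyads) had 4.81% and 2.56%, and 10.7%, 8.84% and 18.2%. In both, each Tet2-/- library lay above both Tet2+/+ libraries. That of Foxc1 (chr13:31806396-31806645, plus strand), with 29 dyads, had 0 methylated of 53 to 145 calls in every library. With each call taken as independent, this allows a level of up to 2.07% to 5.66% for counting error alone. Calls on the same read are not independent, so that the true limits are wider. Barhl2 (chr5:106458167-106458416, minus strand) had 36 dyads in the stretch, more than the other 5, and levels of 28.2% and 29.6% in Tet2+/+ against 16.1%, 18.4% and 40.4% in Tet2-/-. Foxd3 (chr4:99656049-99656298, plus strand, 21 dyads) had 51.5% and 36.4% against 69.5%, 61.9% and 66.0%. In Irx2 (chr13:72628570-72628819, plus strand, 19 dyads) the groups overlapped, at 39.0% and 43.1% against 60.3%, 40.6% and 38.1%. A dense run of CG thus went with no methylated call in Foxc1 and with partial methylation in Barhl2, Foxd3 and Irx2, in Tet2+/+ as in Tet2-/- blasts.

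To ask what loss of TET2 did at these genes, calls were first summed over promoters, which reached 1000 bp to either side of the transcription start site (TSS) and needed 20 calls per library. All 55 member promoters passed, with 20 to 216 CpG dyads and 68 to 1250 calls per library. Already in Tet2+/+ blasts the members with at least 100 dyads were more methylated than promoters of that density at large, while the sparser members were not. Tet2+/+ libraries 23 and 24 had member medians of 18.6% and 13.3%, against 27.1%, 24.4% and 30.2% for Tet2-/- libraries 5, 7 and 8. Over 5325 promoters with at least 100 dyads, a count that 30 members reached, the median was 3.74% and 3.24%, and 4.14%, 4.42% and 5.05%. The 30 members of that density stood at 9.69% and 9.57% in Tet2+/+ and at 16.2%, 19.7% and 26.5% in Tet2-/-. The 25 members under 100 dyads stood at 21.9% and 16.7% in Tet2+/+, below the 27.8% and 23.9% of all promoters under 100 dyads. Levels above 20% in the Tet2+/+ mean were found at 21 members (38.2%), and in the Tet2-/- mean at 37 (67.3%). Over all promoters, of any CpG density, the shares were 42.4% and 47.9%, so that in Tet2+/+ fewer members than promoters at large were above 20%.

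**Figure D1:**
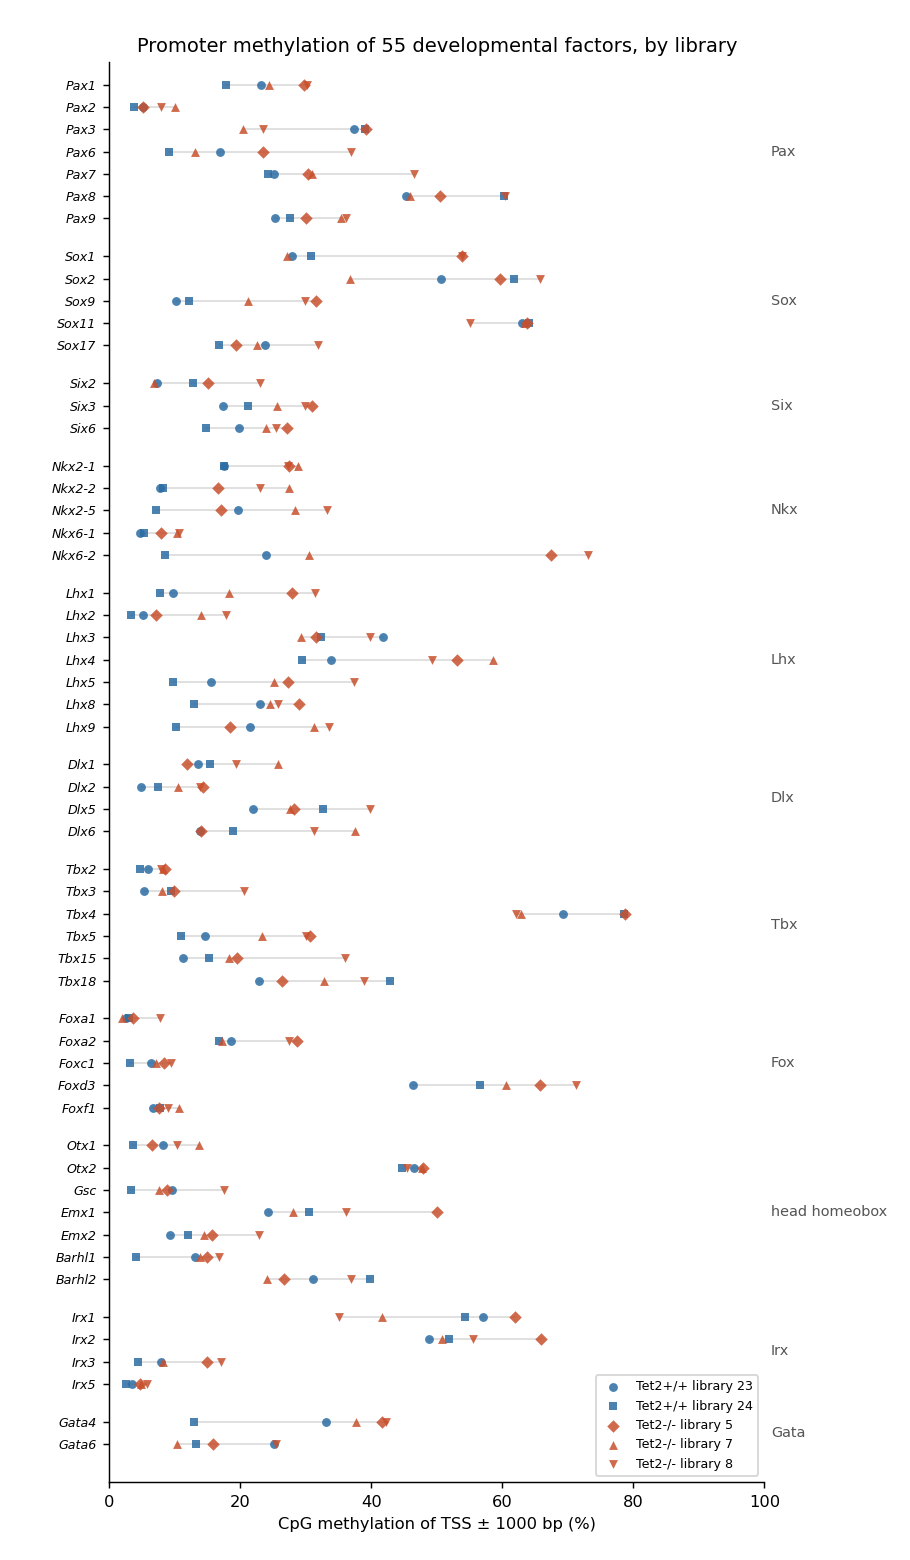
Promoter methylation (%) of each of the 55 members in the 5 libraries, by family, with blue for Tet2+/+ and red for Tet2-/- and 1 marker shape per library. At 26 members all 3 red markers lie to the right of both blue ones, and Nkx6-2 has the largest difference between group means, 40.7 points.

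In the difference of group means, 45 member promoters were higher in Tet2-/- (81.8%, against 76.7% of all promoters) and 10 lower, with a median of 6.78 points. The median over all 19455 promoters tested was 2.22 points, and over those with at least 100 dyads 0.58 points. The 30 members with at least 100 dyads had a median of 6.09 points. The 25 members under 100 dyads had 7.41 points, against 3.42 over all promoters under 100 dyads. Promoters with at least 100 dyads stood low, at a median of 3.60% in the Tet2+/+ mean. All 3 Tet2-/- libraries lay above both Tet2+/+ libraries at 26 members (47.3%), against a background of 32.8% of all promoters and 25.4% of those with at least 100 dyads. No member had all 3 below. In edgeR's quasi-likelihood test with Benjamini-Hochberg adjustment over all promoters, 1 member was called higher (Lhx1) and 0 lower, where 1.06% of all promoters and 0.789% of the CpG-rich ones were called higher. At an unadjusted p under 0.05 there were 16 members (29.1%), against 18.1% of all promoters. Of the 209 promoters called in all, 206 were higher, and 34 of 40 after subtraction of each library's median in limma, which called no member. The counts of calls changed when 1 library was left out. Among all promoters they were 298 without Tet2-/- library 5, 105 without library 7 and 81 without library 8. Leaving out either Tet2+/+ library left 1 in that group, where a loss of calls cannot be told apart from a loss of power. The median member difference was then 7.61 points without library 23 and 6.64 without library 24, against 2.79 and 1.54 over all promoters. An exact permutation test of 2 libraries against 3 has 10 arrangements and, one-sided, cannot go below 0.1. As run here, 2-sided, its p was 0.2 at Lhx1, where the groups did not overlap. It could thus not pass 0.05 for any single promoter.

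**Figure D2:**
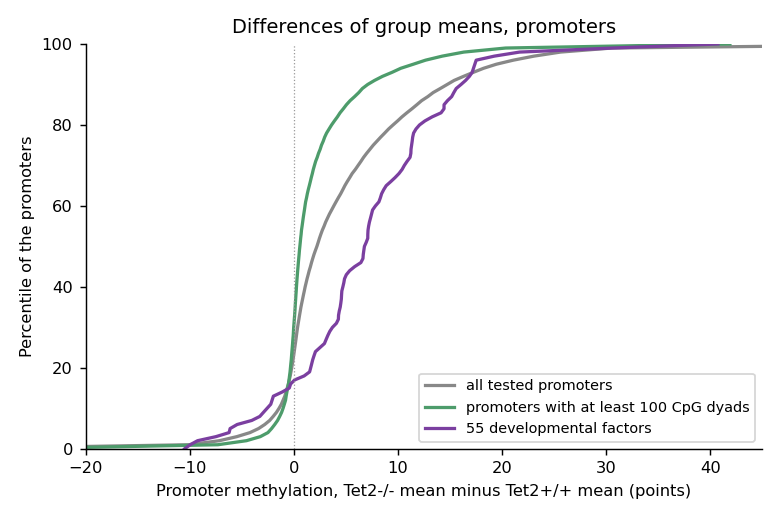
Percentile (vertical axis) of the promoter difference, Tet2-/- mean minus Tet2+/+ mean in percentage points (horizontal axis), for the members, all tested promoters and promoters with at least 100 CpG dyads. The member curve crosses its middle at 6.78 points, to the right of 2.22 for all promoters and 0.58 for the CpG-rich ones.

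The difference was next set against the level at which a member stood. Of 10 members with a mean under 10% over all 5 libraries, 10 were higher in Tet2-/-, by a median of 3.40 points, where 69.2% of 7857 promoters of that level were higher, with a median of 0.52. Among 25 members between 10% and 30%, 24 were higher, by a median of 8.42 points, against 80.6% higher and a median of 4.35 for all promoters of that level. Of the CpG-rich promoters of that level 82.5% were higher, with a median of 5.15 points. Of 20 members at 30% or more, 11 were higher and 9 lower (median 3.02 points), while 82.4% of all promoters at that level, and 67.5% of the CpG-rich ones, were higher. The medians of these were 7.22 and 3.60 points. All 3 Tet2-/- libraries lay above at 30% of these members, against 39.3% of all promoters and 22.8% of the CpG-rich ones at that level. Of the 10 members with a lower mean in Tet2-/-, 9 thus stood at 30% or more, and the other was Gata6.

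The Nkx genes pattern the ventral neural tube, the foregut and the heart. All 5 were higher in Tet2-/- at an unadjusted p of edgeR under 0.05, which 18.1% of all promoters reached. At an adjusted p under 0.05, 0 of the 5 promoters were called. The adjusted p of edgeR was 0.2101 for Nkx2-1, 0.239 for Nkx2-5 and 0.1898 for Nkx6-1. Nkx6-2, a homeobox factor of the ventral neural tube and of oligodendrocytes, had the largest difference of all members. Its promoter (chromosome 7, 139581797 to 139583797, 163 dyads) stood at 23.9% and 8.54% in Tet2+/+ libraries 23 and 24, and at 67.5%, 30.4% and 73.0% in Tet2-/- libraries 5, 7 and 8. The groups did not overlap, but library 7 lay nearer to Tet2+/+ library 23 than to the other Tet2-/- libraries. The Tet2-/- mean of 57.0% ± 23.2 (SD, n = 3) exceeded the Tet2+/+ mean of 16.2% ± 10.9 (SD, n = 2) by 40.7 points. The adjusted p of edgeR was 0.0571. It ran from 0.0161 (without library 7) to 0.555 (without library 24) over 13 alternatives, 2 of which called it. Nkx2-2, which directs ventral neurons and pancreatic endocrine cells, stood at 7.69% and 8.25%, and at 16.7%, 27.5% and 23.1%. Each Tet2-/- value was above both Tet2+/+ values, and the adjusted p of edgeR was 0.0531. In Nkx2-1, the factor of thyroid, lung and forebrain, both Tet2+/+ libraries were at 17.6% and the Tet2-/- libraries between 27.3% and 28.8%. Nkx2-5, an early marker of the heart, overlapped, with 19.6% and 7.17% against 17.1%, 28.4% and 33.2%. Nkx6-1 stayed low in both groups, at 4.63% and 5.34% against 7.85% to 10.6%.

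The Lhx genes encode LIM homeodomain factors that specify neurons, pituitary, kidney and gonad. Lhx1, needed for the head and the kidney, was the promoter called (chromosome 11, 84524535 to 84526535, 136 dyads, its downstream part exon of the gene, with Lhx1os on the opposite strand). Tet2+/+ libraries 23 and 24 stood at 9.74% and 7.81%, and Tet2-/- libraries 5, 7 and 8 at 27.9%, 18.2% and 31.4%. The 3 Tet2-/- libraries were all above both others. The means of 8.78% ± 1.36 (SD, n = 2) and 25.9% ± 6.82 (SD, n = 3) differed by 17.1 points. The adjusted p of edgeR was 0.0493, next to the threshold, and it passed in 3 of 13 alternatives, over which it ran from 0.0397 to 0.503. Lhx5, a forebrain factor, had 15.5% and 9.75%, and 27.3%, 25.1% and 37.4% (17.3 points, adjusted p of edgeR 0.0728). Lhx4, a pituitary and motor neuron factor whose promoter held only 20 dyads, had 33.8% and 29.4%, and 53.0%, 58.5% and 49.3%, without overlap. Lhx2, of forebrain and eye, was low, with 5.09% and 3.28% against 7.12%, 14.0% and 17.8%, and did not overlap. Lhx3, a close relative of Lhx4, was the 1 member of the family with a lower mean in Tet2-/- (difference -3.47 points), with 41.7% and 32.4% against 31.6%, 29.3% and 39.8%. Its sign turned with the promoter taken around the principal transcript, at 6.14 points, and the gene Qsox2 overlaps its promoter. Lhx8 and Lhx9 were higher by 8.42 and 11.9 points in the means.

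Sox and Pax factors differed among themselves. Sox9, the regulator of cartilage and testis, stood at 10.2% and 12.1%, and at 31.6%, 21.2% and 29.9%. The groups did not overlap (means 11.2% ± 1.36 and 27.6% ± 5.56, SD, n = 2 and 3), with an adjusted p of 0.0599 in edgeR's quasi-likelihood test. Sox1, a marker of neural progenitors, had 27.9% and 30.9%, and then 53.8% in libraries 5 and 8 but 27.2% in library 7. Sox2 and Sox11, of pluripotent and neural cells, were among the 5 most methylated members. Sox2 had 50.7% and 61.7% against 59.6%, 36.7% and 65.8%, and Sox11 63.0% and 64.1% against 63.7%, 63.5% and 55.01%. Both thus overlapped, and the sign of either turned when 1 library was left out. Among Pax genes, Pax2, of kidney and eye, was among the least methylated members, with 5.15% and 3.76% against 5.09%, 10.1% and 7.89%. Pax3, of neural crest and muscle, had the lowest difference of all, with 37.4% and 39.1% against 39.2%, 20.5% and 23.5%. Library 5 was there level with the Tet2+/+ libraries while 7 and 8 were lower, for a difference of -10.5 points (adjusted p of edgeR 0.372). The other Pax genes lay between -0.46 and 11.5 points, and Six2, Six3 and Six6, of kidney, forebrain and eye, between 4.91 and 9.60 points.

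Of the Dlx genes, which act in jaw and forebrain interneurons, all 4 were higher in the means, by 4.47 to 11.2 points. Dlx2 showed no overlap, with 4.92% and 7.52% against 14.3%, 10.5% and 13.9%, while Dlx1, Dlx5 and Dlx6 overlapped. Dlx1 had 13.5% and 15.4% against 11.8%, 25.7% and 19.3%, and Dlx6 13.9% and 18.8% against 14.0%, 37.5% and 31.3%. Dlx1 and Dlx2 lie 18641 bp apart and Dlx5 and Dlx6 18751 bp apart, so that their outer windows share CpGs. T-box genes of heart and limb spanned the widest range. Tbx2 was at 5.92% and 4.65% against 8.53%, 8.20% and 7.92%, a small difference without overlap. Tbx4, the hindlimb factor, was the most methylated member, at 69.3% and 78.6% against 78.7%, 62.9% and 62.1%, while its forelimb relative Tbx5 had 14.6% and 11.02% against 30.6%, 23.4% and 30.1%. Tbx5 did not overlap between groups and Tbx4 did. The mean differences of Tbx3, Tbx15 and Tbx18 were 5.51, 11.4 and -0.226 points. That of Tbx3 was 1.65 points without library 8. Tbx15 had 11.2% and 15.3% against 19.6%, 18.3% and 35.9%. Tbx18 overlapped, with 22.8% and 42.9% against 26.3%, 32.7% and 38.9%.

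Forkhead factors were low in both groups except Foxa2 and Foxd3. Foxa1, a pioneer factor of endoderm, had 2.51% and 3.09% against 3.63%, 2.02% and 7.73%, and Foxc1, of eye and mesoderm, 6.31% and 3.22% against 8.38%, 7.19% and 9.44%. Foxd3, which maintains neural crest and pluripotent cells, had 46.4% and 56.5% against 65.7%, 60.5% and 71.3%, without overlap (14.4 points, adjusted p of edgeR 0.239). Without library 23 the difference was 9.34 points, and without library 24 19.5 points. Among the head homeobox genes, Otx1 and Emx2, of forebrain and cortex, were low (3.61% to 13.8% and 9.22% to 22.9% over the 5 libraries), and Emx1 had 24.3% and 30.5% against 50%, 28.0% and 36.2%. Barhl2, of retina and spinal cord neurons, had 31.1% and 39.8% against 26.6%, 24.04% and 36.95% over its whole promoter, and Otx2 stayed between 44.6% and 47.9% in every library.

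The Iroquois genes pattern neural tube, heart and limb, and fell into high and low members. Irx1 and Irx2, neighbours on chromosome 13, were high, and Irx3 and Irx5, neighbours on chromosome 8, low. Irx1 had 57.1% and 54.3% against 61.9%, 41.7% and 35.0%, with library 5 above and libraries 7 and 8 below both Tet2+/+ libraries. Irx2 had 48.8% and 51.8% against 66.0%, 50.8% and 55.6%, also with overlap. Irx3 had 7.94% and 4.43% against 15.0%, 8.18% and 17.0%, and Irx5, the member with the lowest level but for Foxa1, 3.50% and 2.63% against 4.75%, 4.89% and 5.81%. Both were above in all 3 Tet2-/- libraries. Gata4, of heart and gonad, differed by 17.6 points, but its 2 Tet2+/+ libraries were far apart, at 33.0% and 12.9% against 41.7%, 37.7% and 42.3%. Without library 23 the difference was 27.6 points, without library 24 7.50 points, and around the principal transcript's TSS 3.61 points. Gata6, of endoderm and heart, had 25.1% and 13.3% against 15.8%, 10.4% and 25.4%.

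Gene bodies of the members held 122 to 1624 dyads and 200 to 10287 calls per library. Median body methylation of the members was 26.04% and 23.2% in Tet2+/+ and 34.4%, 29.7% and 37.7% in Tet2-/-, far under the 61.1% to 73.2% over all bodies. In edgeR's quasi-likelihood test, 22 of 55 members rose (40.0%) and 0 fell, where 15.5% of the 20715 bodies tested were called higher. All 3 Tet2-/- libraries lay above both Tet2+/+ libraries at 38 members (69.1%), against a background of 46%. The median difference was 8.35 points, against 4.95 over all bodies. The members that rose were 4 of 5 Nkx, 4 of 7 Lhx, 4 of 7 head homeobox, 2 of 5 Sox, 2 of 4 Dlx, 2 of 6 Tbx, 2 of 4 Irx, 1 of 7 Pax and 1 of 5 Fox genes, with no sine oculis-related or Gata gene. Without Tet2+/+ library 24 the median member difference fell to 5.93 points, against 3.04 points over all bodies. That fit had 1 Tet2+/+ library, so that it does not show the excess of member calls to hold. Without Tet2-/- library 5, 11 members were called (20%, against 8.69% of all bodies), and without Tet2-/- library 8 12 (21.8%, against 16.2%). Limma called 1 member (Irx3, or 1.82%, against 2.33% of all bodies), and 0 with library medians subtracted, where 6 bodies were called in all, 5 of them higher.

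Nkx6-2 and Irx3 stood out among the bodies. In the body of Nkx6-2 (3422 bp), Tet2+/+ libraries 23 and 24 had 34.1% and 14.6%, against 66.4%, 37.6% and 67.9% for Tet2-/- libraries 5, 7 and 8. That of Irx3 (3543 bp) had 13.6% and 6.43%, and 34.4%, 20.4% and 35.9%. Both rose without overlap between groups, by 32.9 and 20.2 points. Otx1 rose by 11.3 points, from 19.6% and 10.1% to 23.8%, 23.1% and 31.7%, and by 6.54 to 16.0 points over 10 alternatives. Sox9 rose by 15.6 points, with 25.99% and 20.3% against 42.6%, 33.8% and 39.9%. Emx1 and Emx2 rose by 12.9 and 10.9 points, with Emx2 at 15.9% and 14.0% against 24.5%, 23.6% and 29.4%. In these 6 genes every Tet2-/- library was above both Tet2+/+ libraries. Lhx5 (8.35 points), Nkx2-5 (12.2), Nkx2-2 (9.64), Tbx2 (9.61), Tbx3 (9.57) and Dlx2 (7.90) rose as well. Of these, Lhx5 (12.4% and 10.3%) and Dlx2 (9.92% and 7.64%) had the lowest levels in Tet2+/+. The Tbx2 difference ran from 6.03 to 12.1 points over 10 alternatives. With the first 1000 bp after the TSS left out, Irx3, Nkx6-2 and Otx1 were the members called. Their share of 5.45% was then below the 10.3% of all bodies called higher, so that the excess of member calls did not hold there. The median difference in these shortened bodies was 8.88 points for members and 6.20 points for all. Sox2 had the lowest body difference, -4.83 points, with 53.4% and 65.7% against 60.1%, 40.0% and 64.0%.

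To place the differences, 20 windows of 1 kb within 10 kb of each TSS were compared. The profile of the members was unlike that of other genes. Over all genes, median methylation was 5.33% to 11.1% across libraries in the first 1 kb after the TSS and already 71.0% to 88.4% in the window 2 to 3 kb downstream. Among the members, the first 1 kb had 17.9% and 13.3% in Tet2+/+ and 26.8%, 22.8% and 31.2% in Tet2-/-, and from 5 kb upstream to 10 kb downstream window medians reached at most 39.6% in any library. The stretch of low methylation was thus wider and less deep than at other genes. The median member difference was between 5.19 and 11.5 points in each of the 20 windows.

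**Figure D3:**
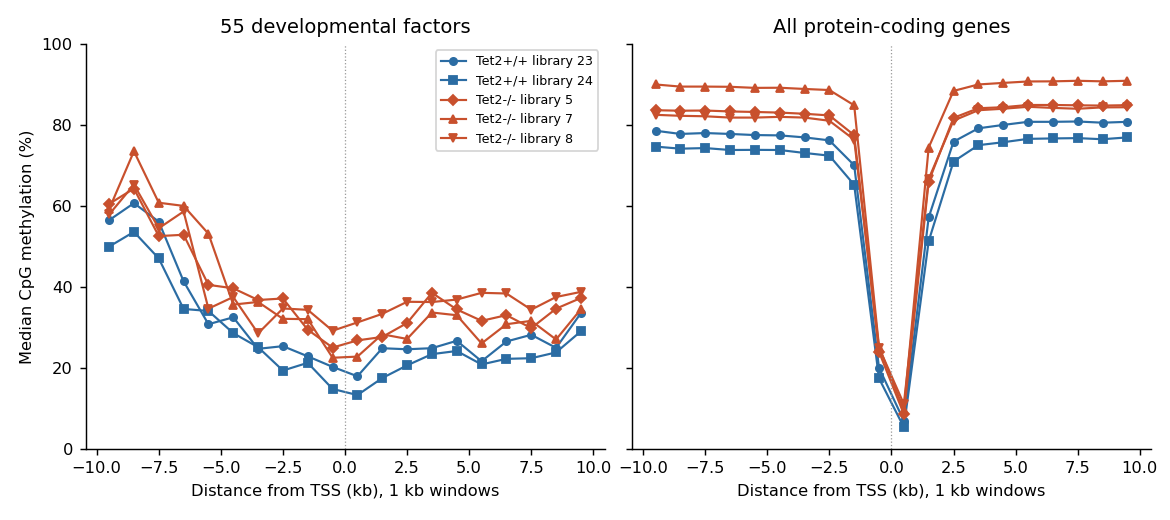
Median CpG methylation (%) in 1 kb windows from 10 kb upstream to 10 kb downstream of the TSS, per library, for the members and for all protein-coding genes. All genes show a narrow dip at the TSS, while member medians stay at or below 39.6% from 5 kb upstream onwards, with the 3 Tet2-/- lines mostly above the 2 Tet2+/+ lines.

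The windows were then divided by CpG density. In windows with at least 50 dyads, members stood at a median of 13.7% in Tet2+/+ and 25.4% in Tet2-/- (153 windows), and all genes at 1.69% and 2.39%. In windows with under 20 dyads the order was turned, at 38.2% and 50.4% for members and 75.6% and 84.8% for all genes. The median difference of members was close to equal in the 3 density classes, 7.83, 7.77 and 7.51 points from the sparsest to the densest, and fell from 6.43 to 0.48 points over all genes.

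Of 907 member windows tested, 19 rose and 0 fell in edgeR's quasi-likelihood test, or 2.09%, against a background of 3.03% of 259330 windows. Pooled over CpG density, the share of calls was thus no higher than elsewhere. All 3 Tet2-/- libraries lay above in 342 (37.7%), against 36.4%. By density, 3.27% of member windows with at least 50 dyads were called, against 2.52% of all such windows. In 45.8% of these member windows all 3 Tet2-/- libraries lay above, against 24.96%. With 20 to 49 dyads 2.24% were called, against 5.04%, and with under 20 dyads 1.51%, against 2.62%. The shares with all 3 above were there 37.5% against 38.9%, and 34.8% against 36.7%. Without Tet2-/- library 8, 9 member windows were called higher (0.992%), against 1.63% of all windows. Without Tet2+/+ library 24 the median member difference was 6.61 points, against 4.16 points over all windows. Of the 7900 windows called in all, 7865 were higher, and 707 of 836 with library medians subtracted in limma, which called 0 member windows. The largest difference was in a window 6 to 7 kb upstream of Lhx2 (chromosome 2, 38332281 to 38333280), with 10.3% and 42.1% in Tet2+/+ and 90.3%, 60.0% and 87.0% in Tet2-/-, but it rests on 5 dyads and 23 to 62 calls. In Nkx6-2, the windows from the TSS to 1 kb downstream and from 1 kb upstream to the TSS rose by 43.0 and 37.1 points. The first had 20% and 3.45%, and 67.1%, 24.3% and 72.8%, over 118 dyads. A further pair of Nkx6-2 windows, 2 to 3 and 6 to 7 kb upstream, rose by 22.4 and 36.4 points, whereas from 3 kb downstream all 5 libraries were at 81.8% or more in every window tested.

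In Irx3 the start itself stayed low, with 4.53% and 1.79% against 9.79%, 6.29% and 10.96% in the first 1 kb. The window 2 to 3 kb downstream (chromosome 8, 91799068 to 91800067, 65 dyads), inside the gene, rose from 7.01% and 4.18% to 47.5%, 24.04% and 61.1%, or by 38.6 points (adjusted p of edgeR 0.001). Foxd3 had such a window past its 3' end. There, 3 to 4 kb from the TSS, 17.7% and 11.5% stood against 62.3%, 41.2% and 54.3% (38.0 points), beside a promoter already methylated in both groups. In these called windows, all 3 Tet2-/- libraries were above both Tet2+/+ libraries. The other called windows belonged to Pax2, Pax6, Six2 (2 windows), Six3, Gsc, Sox1, Otx1, Nkx2-2, Lhx3, Lhx9 and again Irx3, with differences of 5.99 to 34.9 points, and 5 of the 19 held at least 50 dyads.

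**Figure D4:**
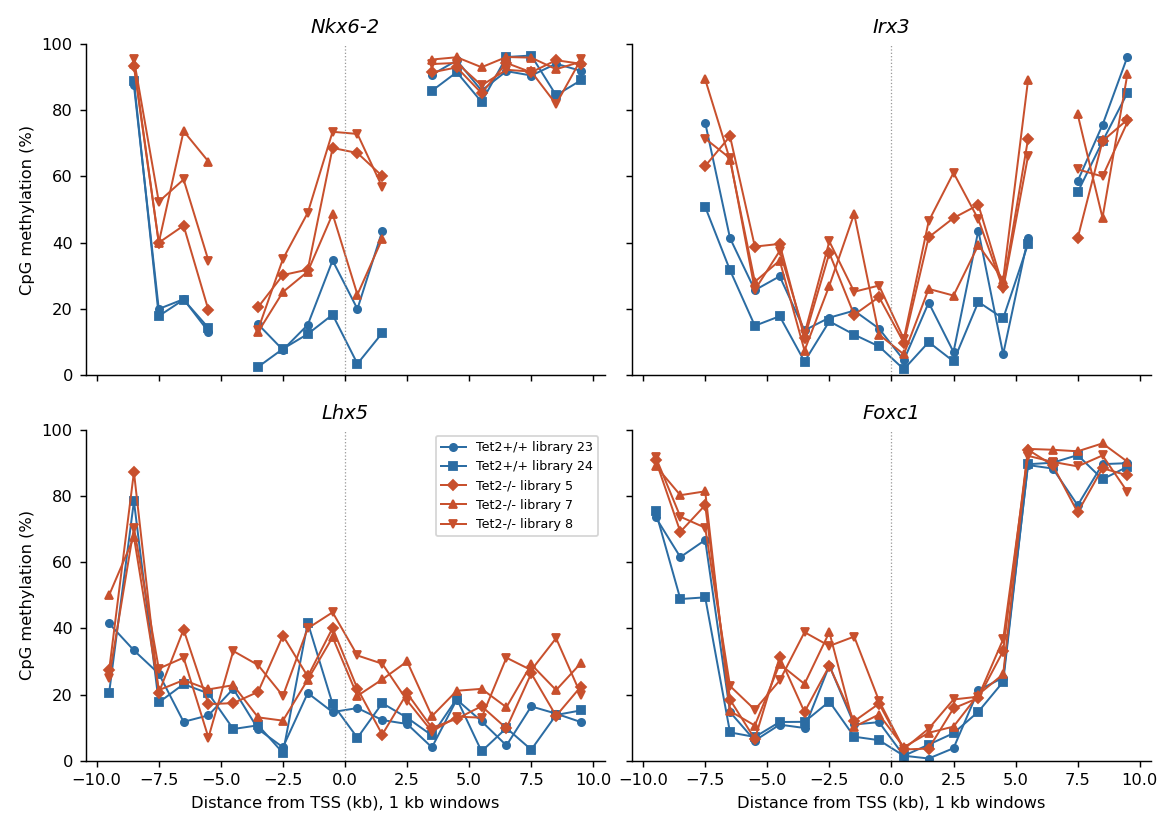
CpG methylation (%) of 1 kb windows around the TSS of Nkx6-2, Irx3, Lhx5 and Foxc1 in each library, with gaps where a window had under 20 calls in a library. Tet2-/- lines (red) rise over the Nkx6-2 start and inside Irx3 2 to 3 kb downstream, while the first 1 kb of Foxc1 stays between 1.51% and 4.11% in all 5 libraries.

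The extent of low methylation was described by the number of windows whose group mean was under 20%. Over the 55 members, 340 of 907 windows (37.5%) were that low in Tet2+/+ and 161 (17.8%) in Tet2-/-, so that the Tet2-/- number was 47.4% of the Tet2+/+ number. Over all genes the shares were 15.6% and 12.4%, and the Tet2-/- number was 79.2% of the other. The member share depended on the limit, at 29.8% for windows under 10% and 68.4% for windows under 30%. All genes were not compared at these limits. At 48 members the number was smaller in Tet2-/-, at 7 equal and at 0 larger, where of 20830 genes 6173 had fewer, 14167 an equal number and 490 more. The mean number of low windows in Tet2+/+ was 6.18 per member against 1.94 over all genes. At least 8 low windows in Tet2+/+ were found at 22 members (40.0%) and at 1.51% of all genes. Members thus had more low windows to lose. In windows with at least 50 dyads their Tet2+/+ median of 13.7% also lay nearer to 20% than the 1.69% of all genes. The numbers of windows lost therefore do not compare members and other genes from a like start. Per library, Tet2+/+ libraries 23 and 24 had 327 and 380 member windows under 20%, and Tet2-/- libraries 5, 7 and 8 had 207, 211 and 161. No Tet2-/- library reached the number of a Tet2+/+ library.

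**Figure D5:**
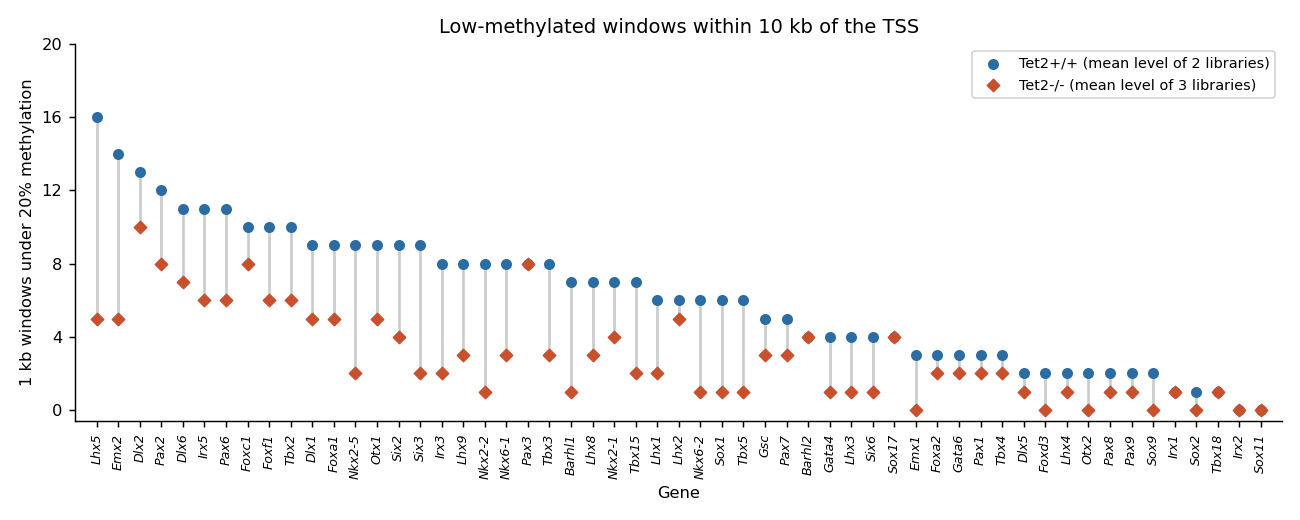
Number of 1 kb windows within 10 kb of the TSS whose mean methylation was under 20%, for each member in Tet2+/+ (circles) and Tet2-/- (diamonds), ordered by the Tet2+/+ number. Diamonds lie below circles at 48 members, with Lhx5 going from 16 to 5 and Foxc1 from 10 to 8.

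The widest low stretches belonged to Lhx5 with 16 of 20 tested windows, Emx2 with 14 of 20 and Dlx2 with 13 of 17. In Tet2-/- Lhx5 and Emx2 had 5 such windows each and Dlx2 had 10. Nkx2-2 went from 8 to 1, Nkx2-5 from 9 to 2 and Six3 from 9 to 2, while Pax3 had 8 in both groups and Foxc1 10 and 8. Irx2 and Sox11 had none in either group and Irx1 had 1, in both. Members with wide low stretches thus differed from each other in their number of low windows in Tet2-/-.

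The 3 Tet2-/- leukemias were not alike at these genes. Library 7 had the highest genome-wide level and the highest median over all bodies, yet it was the lowest of the 3 at 33 of 55 member promoters and the highest at 8. Library 8, with the lowest genome-wide level of the 3, was the highest at 32 members and the lowest at 7. It was also the shallowest, at 2.96 calls per dyad against 5.09 and 5.19 in libraries 5 and 7, and the part of depth was not tested. Library 8 also had the highest median of the 3 over all promoters (18.8%, against 16.4% and 17.2% in libraries 5 and 7), so that its place at promoters was not particular to the members. In gene bodies, library 8 had the highest member median (37.7%, against 34.4% and 29.7% in libraries 5 and 7). Over all bodies it had the lowest (67.7%, against 69.7% and 73.2%). Single CpG dyads in member promoters with at least 5 calls were between 20% and 80% methylated in 33.5% and 32.0% of cases in Tet2+/+, and in 38.2%, 34.8% and 44.0% in Tet2-/-, with over 80% methylation in 4.33% to 7.82% of them. Such dyads numbered between 1187 and 3874 of 6291 per library, so that these shares rest on the better covered sites.

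Other genes of embryonic patterning, 50 in all, were set beside the members without a test of the difference. Their promoter median was 19.1% and 18.1% in Tet2+/+ and 30.6%, 24.5% and 32.2% in Tet2-/-, with a median difference of 7.29 points and 45 higher and 5 lower in the means. In edgeR's quasi-likelihood test 4 of their promoters (8%) and 25 of their bodies (50%) rose and 0 fell, against the 1.06% and 15.5% called higher among all promoters and bodies. The 30 genes of the Polycomb complexes themselves had low promoters, at medians of 5.15% to 6.27% over the 5 libraries. Their median difference was 0.23 points, with 19 higher and 11 lower, and 0 calls in promoters or bodies. At an unadjusted p of edgeR under 0.05 there were 3 of each (10%), against 18.1% of all promoters and 29.2% of all bodies. Of 25 blood transcription factors, promoters had a median difference of 1.18 points with 1 that rose (4%), and 6 bodies rose (24%), against the same 1.06% and 15.5%.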

How the data were processed

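The data were WGBS of 5 libraries of AML blasts. The authors deposited, per library, counts of methylated and unmethylated calls at single CpG positions of GRCm38; per the labels the tools were FastQC 0.11.7, Trim Galore 0.4.3, Bismark 0.19.1 and Bowtie2, as named in the submitters' processing notes. Reads at the same position were removed as duplicates. Intervals and limits cover counting error only and take each call as independent. Calls on the same read are not, so that these intervals and limits are too narrow. Both strands of a CpG were summed into 1 dyad, and 28791 of 28791 dyads near the members matched the reference. A level is methylated calls over all calls, and a region needed at least 20 calls in each library. Calls were summed over promoters (1000 bp to either side of the start of the gene record in GENCODE vM21), gene bodies (the whole record) and 20 windows of 1 kb per gene.

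The groups were compared in edgeR 4.0.16 (quasi-likelihood test with a coefficient per library, Benjamini-Hochberg over all regions of a kind, threshold 0.05), under R 4.3.3 with limma 3.58.1 as the alternative. Python 3.11.15, numpy 2.4.6, pandas 2.3.3, scipy 1.17.1, pysam 0.24.0 and matplotlib 3.10.9 did the rest. The fit was also run on simulated data, which unlike these data held no genome-wide difference between groups, and the outcome is not reported here. Depth was 2.96 to 5.19 calls per dyad, and 95% Wilson intervals of member promoter levels were 2.33 to 22.1 points wide (median 7.51), those of bodies 1.89 to 13.2 and those of windows 1.46 to 40.0.

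Members and lists were chosen with earlier results of these data known. Named members were those called (in bodies the 12 with the smallest adjusted p), the 5 with the largest and the 5 with the lowest promoter difference, the 5 highest and 5 lowest promoter levels, those of the 5 called windows with the largest difference, and the 3 with most and the 3 with fewest low windows. Other members were named for their families after their values were seen. Alternatives were minimums of 10 and 50 calls, limma with and without library medians subtracted, other promoter lengths and start sites, dyads called in all 5 libraries, bodies without their first 1000 bp, and each library left out. Each library was 1 mouse.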

Additional observations from a re-analysis of the deposited data

How the results depend on the processing

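The median member difference kept its sign with each library left out and with the other minimums of calls, promoter lengths, start sites and body extents and with dyads called in all 5 libraries, at 4.87 to 7.91 points for promoters, 5.93 to 9.39 for gene bodies and 6.61 to 9.09 for windows. It was not recomputed with library medians subtracted. Counts of calls did not keep their size, and the cause was not tested. With 1 library left out, promoter calls ran from 0 (without Tet2+/+ library 24) to 298 and member promoters from 0 to 2, gene body calls from 87 to 3367 and member bodies from 0 to 31, window calls from 420 to 9390 and member windows from 1 to 17, and the difference in low member windows from -219 to -152. With library medians subtracted in limma, calls were 40 promoters, 6 bodies and 836 windows, with 0 members in each. Limma without this called 0 member promoters, 485 bodies and 1 member body. With 500 bp on each side 104 promoters and 0 members were called, with 2000 bp 537 and 6 (Foxd3, Irx3, Lhx1, Lhx5, Nkx2-2 and Nkx6-2). At least 50 calls gave 0 member promoters and 4304 windows. Without the first 1000 bp, 2060 bodies and 3 members were called. Low windows differed by -85 under 10% and -168 under 30%, against -179 under 20%.

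Signs turned at members without a promoter or body call. Lhx3 was at 2.34 points with 500 bp and 6.14 at the principal start site, Tbx4 at 3.03 there, and the Irx1 body at 1.62 without its first 1000 bp. With 1 library left out, promoter differences ran from -8.15 to 1.22 for Lhx3, -8.05 to 6.50 for Sox2 and -4.30 to 0.038 for Sox11, and body differences from -11.0 to 2.51 for Sox2, -2.60 to 6.77 for Sox11, -5.62 to 4.20 for Irx1 and -0.545 to 7.04 for Irx2. No paired analysis was possible because the groups share no replicate number.

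Depth limits single windows most, since 95% Wilson intervals of member window levels were up to 40.0 points wide.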

Other observations

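Among the 50 other patterning genes, the promoters that rose in edgeR's quasi-likelihood test were those of Foxl2, a factor of the ovary, Olig2 and Olig3, of oligodendrocytes and spinal interneurons, and Sim1, of the hypothalamus. Foxl2 stood at 4.68% and 4.96% in Tet2+/+ libraries 23 and 24, and at 37.6%, 11.6% and 43.7% in Tet2-/- libraries 5, 7 and 8. Sim1 stood at 7.42% and 8.42%, and at 25.4%, 20.1% and 30.4%. In both, library 7 was the lowest of the Tet2-/- libraries and was still above both Tet2+/+ libraries.

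Of the 25 blood factors, Cebpe, a relative of Cebpa that acts late in granulocyte maturation, was the 1 promoter that rose, with 2.92% and 2.43% against 9.58%, 21.5% and 27.0%. Its body rose too, from 8.42% and 2.53% to 18.1%, 43.0% and 62.5%, and the bodies of Gata3, Gfi1, Id2, Mycn and Spi1 were the others that rose. Library 5 was the lowest of the Tet2-/- libraries at Cebpe.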
